A study of Mus musculus with 28 samples.

Results

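Skin of 9 mice given allogeneic spleen cells was compared between 2 kinds of recipient, 4 mice that lacked both Rag2 and Il13 and 5 that lacked Rag2 only, out of 24 mice in the whole series. Mice were taken when their labels named B10.D2 cells as the graft and a recipient that was either rag2-/- IL13-/- or rag2-/- alone. The Il13-deficient recipients were mice 6223, 6224, 6226 and 6232, and mouse 6232 was measured on 2 arrays. Of these arrays, the first is labelled IL13/- and the other IL13-/-. A mouse given syngeneic cells is also labelled IL13/-, and both labels were read as IL13-/-. The Rag2-/- recipients were mice 5701, 5704, 6151, 6152 and 6154. All recipients were on the BALB/c background, the graft-versus-host disease was of the chronic type, and skin was taken 2 weeks after the cell transfer. The remaining mice received syngeneic BALB/c cells or lacked Il4ra, and they served here for the shared estimate of spread. The 8 syngeneic mice of the same recipient types (4 Il13-deficient and 4 Rag2-/-) were also set beside the allogeneic ones. The sources used here state no ages or sexes, and neither the kind of Il13 allele nor the backcross of that line. The labels name no change in the donor cells.

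IL-13 is a type 2 cytokine made mainly by T helper cells, innate lymphoid cells, mast cells and basophils, and it signals through Il4ra paired with Il13ra1 to the transcription factor Stat6. In skin and other organs it is known for driving fibrosis, alternative activation of macrophages and the release of chemokines such as Ccl2 and Ccl11. Recipients without Rag2 make no T or B cells of their own, so such cells in their skin come from the graft, and those donor cells can carry an intact Il13 gene. An Il13-deficient recipient is therefore a model of loss in host cells, not in donor lymphocytes.

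Each value is a log2 ratio, skin RNA over a universal mouse reference RNA shared by all arrays, so a value of 0 marks equal signal and a difference of 1 is a 2-fold difference. Differences are given as Il13-deficient minus Rag2-/-. Of 29 keratinocyte genes 28 had a median above 0, and the median over these genes lay between 4.48 and 4.96 in each mouse. The sign of all ratios was set from epidermal genes, so this direction checks neither the tissue nor the sign. The share of probes with no measured ratio ran from 13.8% to 33.2% in Il13-deficient mice and from 5.90% to 34.6% in Rag2-/- mice. All 4 Il13-deficient mice have numbers in the series that begins with 62, and the Rag2-/- mice fall in the series 57 and 61. What these series stand for is not given, and genotype and number series cannot be told apart in any result below. On each array, 45% to 51.5% of the measured values were ones that at least 30 probes of that array shared exactly, here called repeated values. Where all values of a gene in a group are repeated, its level there is not resolved and the size of its difference is not interpreted. In bulk skin, fewer cells of a type and less RNA per cell cannot be told apart either.

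One Il13-deficient mouse stood apart from the other 3. Mouse 6224 correlated with them at r = 0.851 to 0.885 over genes measured in all 9 mice, whereas they correlated with each other at 0.943 or above. It correlated with the Rag2-/- mouse 5704 at r = 0.953. On the first principal component, which held 39.6% of the variance, 6224 lay at 48.0 and the other Il13-deficient mice at -36.2 to -17.9, while Rag2-/- mice ran from -12.8 to 35.0 with 5704 at the top. Results below that turn on mouse 6224 are given with and without it.

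No gene passed the test between Il13-deficient and Rag2-/- recipients of allogeneic cells. Of 14783 genes tested with limma, 0 had an adjusted p under 0.05 in either direction (0% of genes higher and 0% lower), and the lowest adjusted p was 0.0972. At an unadjusted p under 0.05 there were 850 genes, 447 higher and 403 lower in Il13-deficient skin, which is 5.75% of all genes (3.02% higher and 2.73% lower). Among the 12605 genes measured in all 9 mice, Il13-deficient mice all lay above Rag2-/- mice for 150 genes (1.19%) and all below them for 100 (0.793%). A difference of at least 2-fold upward was seen for 96 genes (0.649%) and downward for 103 (0.697%). The median difference over all genes was -0.0018, with 49.7% of genes above 0 and 50.3% below, and the 5th and 95th percentiles were -0.48 and 0.51. The median standard error was 0.21, and the median 95% interval reached 0.44 to either side on the log2 scale. No verb of change is therefore used of a single gene in this comparison, and differences are given as values.

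Il13 itself was not resolved in Il13-deficient skin. All 3 of its measured values there were repeated values, as were 4 of 5 in Rag2-/- mice. Il13-deficient mice had -0.27 (6223), -1.40 (6226) and -1.05 (6232), with no measured ratio in 6224, against 0.46 (5701), 0.86 (5704), 0.81 (6151), -0.36 (6152) and -0.18 (6154) in Rag2-/- mice. The groups overlapped through 6223, and the Rag2-/- mice split into a higher set of 3 and a lower set of 2. The fitted difference of -1.22 (SE 0.34, adjusted p = 0.408) did not pass and rests on these values, with a mean of -0.91 ± 0.58 (SD, n = 3) in Il13-deficient mice and 0.32 ± 0.56 (SD, n = 5) in Rag2-/- mice. The place of the probe relative to the deleted part of the gene is not known, so these ratios check no label. Rag2, absent by genotype from every recipient, gave a mean of 0.03 in both kinds of mice.

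Il4, Il4ra, Il13ra1 and Stat6 had differences that did not pass. Il4, the sister cytokine that shares Il4ra, averaged 0.16 ± 0.14 (SD, n = 4) in Il13-deficient mice and 0.46 ± 0.35 (SD, n = 5) in Rag2-/- mice (difference -0.30, SE 0.16, adjusted p = 0.919). Il4ra, the shared receptor chain, averaged 1.54 ± 0.98 in Il13-deficient mice and 2.08 ± 0.67 in Rag2-/- mice, with the highest value of each group in the pair of mice that resembled each other (2.88 in 6224 and 3.27 in 5704). Its difference was -0.54 (SE 0.38, adjusted p = 0.982), and -0.98 without mouse 6224 (adjusted p = 0.211, with 0.211 to 1 over 23 alternatives). Il13ra1, which completes the signalling receptor, differed by -0.32 (SE 0.26) and Stat6 by -0.11 (SE 0.13), and neither passed. Il13ra2, a decoy receptor that binds IL-13 with high affinity, had ratios in 5 mice only and was not tested. It read 1.40, 0.69 and 0.42 in Il13-deficient mice 6223, 6224 and 6232, against 3.24 and 1.90 in Rag2-/- mice 5704 and 6152, and all values but that of 5704 were repeated ones. Il5, an eosinophil growth factor encoded near Il13, was measured in no Il13-deficient mouse and read 0.47 and 0.02, both repeated values, in Rag2-/- mice 5704 and 6151.

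Of the 6 tested genes for Il13 and related cytokines, 1 was higher and 2 were lower at an unadjusted p under 0.05. Over all genes these shares were 3.02% and 2.73%. The higher member was Il25, an epithelial inducer of type 2 cytokines, but all 7 of its measured values were repeated ones. Apart from Il13 the lower one was Tslp, an epithelial cytokine that acts on dendritic and type 2 cells (-0.93, SE 0.44). Among the 11 tested genes of IL-4 and IL-13 receptors and signalling, 9 differences lay below 0, against 50.3% of all genes. The list median was -0.17, and -0.37 without mouse 6224. Only the difference of Socs1, a feedback inhibitor of cytokine signalling that interferons also induce, had an unadjusted p under 0.05 (-0.53, SE 0.25).

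The list of IL-4 and IL-13 response genes was split evenly around 0. The median over 21 tested members was -0.08, with 10 above 0 and 11 below. At an unadjusted p under 0.05, 3 members were lower, against 2.73% of all genes, and 0 were higher. Those 3 were Socs1, the T cell attractant Ccl17 (-1.12, SE 0.40) and the arginine transporter Slc7a2, whose 4 values in Il13-deficient mice were all repeated ones. Of 4 markers of alternative macrophage activation, none passed. Arg1, which breaks down arginine, averaged 4.11 ± 0.44 (SD, n = 3) in Il13-deficient mice and 3.57 ± 0.31 (SD, n = 3) in Rag2-/- mice. The mannose receptor Mrc1 averaged 7.58 ± 0.57 (SD, n = 4) in Il13-deficient mice and 6.99 ± 0.67 (SD, n = 5) in Rag2-/- mice. Retnla, which encodes a secreted resistin-like protein, averaged 5.57 ± 0.89 (SD, n = 4) in Il13-deficient mice and 5.55 ± 0.35 (SD, n = 5) in Rag2-/- mice. Chil3, a chitinase-like protein of macrophages, ranged from -3.79 to 1.55 in Il13-deficient mice and from -3.53 to -0.10 in Rag2-/- mice. Its 95% interval for the difference, -1.31 to 1.72, was the widest of these 4 genes, and the upper end of the Il13-deficient range was mouse 6224.

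Ccl2, the monocyte attractant that the title of the study names together with IL-13, was lower in 3 of 4 Il13-deficient mice than in any Rag2-/- mouse. It read -0.41 (6223), 0.87 (6224), -1.18 (6226) and -0.89 (6232) in Il13-deficient mice, against 0.60 (5701), 0.86 (5704), 0.61 (6151), 0.19 (6152) and 1.14 (6154) in Rag2-/- mice. Mouse 6224 lay inside the Rag2-/- range and the other 3 lay below 0. Over all mice the difference was -1.08 (SE 0.30, 95% interval -1.71 to -0.46, adjusted p = 0.408), a 2.12-fold lower level. Without mouse 6224 it was -1.51 (SE 0.23, adjusted p = 0.00432), and over 23 alternatives the adjusted p ran from 0.00432 to 1. It passed in 3 of these, and each left out mouse 6224 or gave it less weight. That mouse was singled out from these same data, so passing there is no separate support.

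Other chemokines of the same kind had smaller differences, and none passed. Ccl7, which shares the receptor Ccr2 with Ccl2, read 0.74, 1.74, -0.30 and 0.48 in Il13-deficient mice 6223, 6224, 6226 and 6232, against 1.10 to 2.28 in Rag2-/- mice (median 1.38). Here too 3 Il13-deficient mice lay below all Rag2-/- mice, and the difference of -0.96 (SE 0.36, adjusted p = 0.703) did not pass. Ccl12, a further ligand of that receptor in mice, differed by -0.81 (SE 0.49), and Ccl11, an eosinophil attractant and a known target of IL-13, by 0.20 (SE 0.40, 95% interval -0.62 to 1.03). The sign for Ccl11 turned against Rag2-/- mice of the series 61 alone (-0.07) and without mice 6224 and 5704 (-0.06). On the list of monocyte attractants and eotaxins, 2 of 7 tested genes (Ccl2 and Ccl7) were lower at an unadjusted p under 0.05 and 0 were higher (median -0.39). Over all genes 2.73% were lower and 3.02% higher at that p. Ccr2 was measured by a pair of probes in part of the mice. One probe averaged 2.20 ± 0.48 (SD, n = 3) in Il13-deficient mice and 2.64 ± 0.94 (SD, n = 4) in Rag2-/- mice, with a two-sided exact permutation p of 0.486, where 0.0286 is the smallest such a design allows. The other read 6.28 and 7.03 in Il13-deficient mice 6226 and 6232, and 7.33, 7.26 and 6.20 in Rag2-/- mice 5701, 5704 and 6151.

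**Figure D1:**
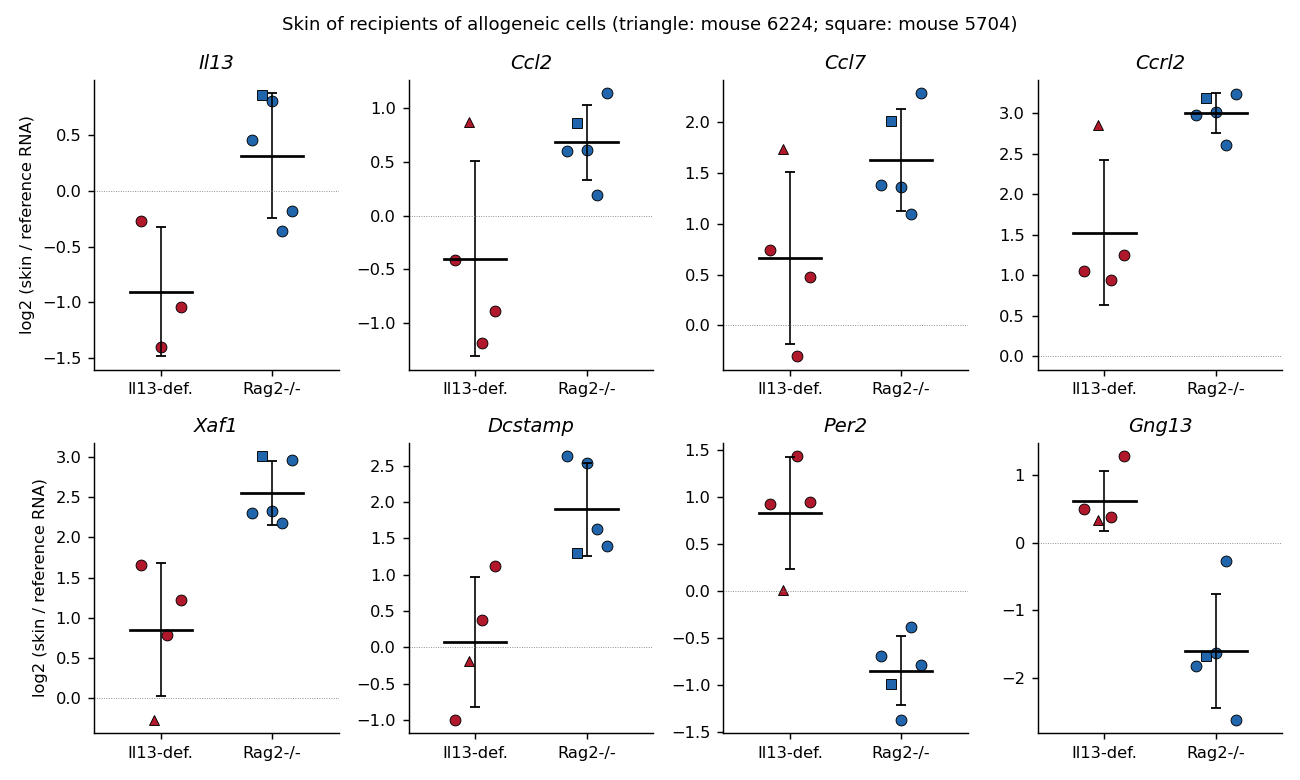
Log2 ratio of skin to reference RNA for 8 genes in recipients of allogeneic cells, Il13-deficient mice on the left of each panel and Rag2-/- mice on the right. Each point is a mouse, the line is the group mean and the bar 1 SD. Mouse 6224 (triangle) sits with the Rag2-/- mice for Ccl2, at 0.87, and for Ccrl2, at 2.85, but with its own group for Gng13, at 0.34. All Il13-deficient values of Il13, Dcstamp and Gng13 are repeated values.

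None of the 10 genes with the lowest p among those lower in Il13-deficient skin passed. With repeated values set to missing, 11 of the 20 leading genes of both directions could still be tested. Ccrl2, a non-signalling receptor that presents the attractant chemerin, read 1.06 (6223), 2.85 (6224), 0.94 (6226) and 1.25 (6232) in Il13-deficient mice, against 2.60 to 3.23 in Rag2-/- mice (median 3.01). Of the 4 Il13-deficient mice, 3 lay far below the Rag2-/- range and 6224 lay within it (difference -1.48, SE 0.30, adjusted p = 0.191).

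Other leading genes separated the groups in every mouse, as did 0.793% of genes measured in all 9 mice in this direction. They were picked by low p in the same mice, so their separation is no separate support. Dcstamp, which macrophages need for fusion into multinucleate cells, ranged from -1.0 to 1.12 in Il13-deficient mice and from 1.30 to 2.63 in Rag2-/- mice (adjusted p = 0.196), but all 4 Il13-deficient values and 2 of the 5 Rag2-/- values were repeated ones. Tnfsf10, the death ligand TRAIL, ranged from 1.09 to 1.77 in Il13-deficient mice and from 2.30 to 3.25 in Rag2-/- mice (difference -1.22, SE 0.27, adjusted p = 0.196). Ccn1, a matricellular protein encoded by an immediate-early gene, ranged from -2.78 to -1.71 in Il13-deficient mice and from -1.48 to -1.11 in Rag2-/- mice (difference -1.14, SE 0.25, adjusted p = 0.196). Xaf1, an interferon-induced gene that promotes cell death, ranged from -0.26 to 1.66 in Il13-deficient mice and from 2.17 to 3.0 in Rag2-/- mice (difference -1.70, SE 0.42, adjusted p = 0.300). For Xaf1, unlike Ccrl2, mouse 6224 had the lowest value of all 9.

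The remaining leaders on the lower side rested on fewer mice or overlapped. Slamf1, a costimulatory receptor of lymphocytes and macrophages, ranged from -0.27 to 0.30 in 3 Il13-deficient mice and from 1.17 to 1.80 in 5 Rag2-/- mice (adjusted p = 0.196), and all 3 Il13-deficient values and 3 of the Rag2-/- values were repeated ones. The mast cell tryptase Tpsab1 had values in only 4 mice, -0.34 and 0.64 in Il13-deficient mice 6223 and 6226 against 2.05 and 2.62 in Rag2-/- mice 5704 and 6152. Both Il13-deficient values of Tpsab1 were repeated ones (adjusted p = 0.145). Of other mast cell genes, Cma1 differed by -0.25, Cpa3 by 0.12 and Mcpt4 by 0.15. Tpsab1 belongs to a family of near-identical tryptase genes, so its signal on the array is uncertain. Banp (-0.98, SE 0.21), Gcg (-0.50, SE 0.11) and the urokinase receptor gene Plaur (-0.91, SE 0.23) completed the 10. Gcg encodes glucagon and lay between -0.05 and 0.77 in all mice with a value, close to equal signal in skin and reference.

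On the higher side Gng13, a G protein subunit known from taste and retinal cells, read 0.49 (6223), 0.34 (6224), 0.38 (6226) and 1.27 (6232) in Il13-deficient mice, against -1.82 (5701), -1.68 (5704), -1.63 (6151), -0.27 (6152) and -2.62 (6154) in Rag2-/- mice. All Il13-deficient mice were above 0 and all Rag2-/- mice below it (adjusted p = 0.196). All 4 Il13-deficient values and 3 of the 5 Rag2-/- values were repeated ones, so the size of the difference is not resolved.

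Per2, a core repressor of the circadian clock, ranged from 0.01 to 1.43 in Il13-deficient mice and from -1.37 to -0.39 in Rag2-/- mice, again without overlap (difference 1.67, SE 0.30, adjusted p = 0.0972). A second Per2 probe gave a difference of 0.0017, so the probes of this gene disagree. Adam1a, a metalloprotease known from sperm, ranged from 0.34 to 1.57 in Il13-deficient mice and from -1.25 to 0.08 in Rag2-/- mice (difference 1.54, SE 0.27, adjusted p = 0.0972), and its second probe gave 0.57. Of the Adam1a values, 3 of 4 in Il13-deficient mice and 4 of 5 in Rag2-/- mice were repeated ones. Tspan12, a tetraspanin that takes part in Norrin signalling in retinal vessels, ranged from 2.43 to 3.08 in Il13-deficient mice and from 1.19 to 1.76 in Rag2-/- mice (difference 1.12, SE 0.20, adjusted p = 0.0972). These 3 genes gave the lowest adjusted p of all genes.

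Smaller differences of the same kind were found for the remaining 6 genes on this side. The transcriptional regulator gene Tsc22d1 differed by 0.54 (SE 0.10), Tpd52l1 by 0.79 (SE 0.17), the diadenosine hydrolase gene Fhit by 0.87 (SE 0.19), and Nmnat3, for an enzyme of mitochondrial NAD synthesis, by 0.58 (SE 0.13). Gpat3, for the acyltransferase that starts triglyceride synthesis, differed by 0.81 (SE 0.19). In these 5 genes every Il13-deficient mouse lay above every Rag2-/- mouse, as in 1.19% of genes measured in all 9 mice. The leading genes on this side were picked by low p in the same mice, so their separation is no separate support. The zinc finger gene Rbak (0.71, SE 0.16) overlapped between groups. The adjusted p of these 6 genes ran from 0.141 to 0.235.

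No T cell gene passed, but all 15 tested members had a difference below 0 (50.3% of all genes did), with a median of -0.60, and 7 of 15 had an unadjusted p under 0.05, against 2.73% of all genes in that direction. The mean over the members measured in all 9 mice was 0.69 (6223), 1.26 (6224), 0.04 (6226) and 0.75 (6232) in Il13-deficient mice, against 1.35 (5701), 1.75 (5704), 1.11 (6151), 1.05 (6152) and 1.11 (6154) in Rag2-/- mice. The Il13-deficient mice other than 6224 lay below all Rag2-/- mice, and 6224 was within their range. Where no member of a list passed, the examples here and below are those with the lowest p, chosen after their values were seen. The adaptor gene Lat differed by -0.64 (SE 0.24), the coreceptor chain Cd8a by -1.07 (SE 0.41) and Cd3g, a chain of the T cell receptor complex, by -0.73 (SE 0.28). Red blood cell genes lay lower too, with a difference below 0 in 4 of 4 and an unadjusted p under 0.05 in 2, and their list mean ran from 3.37 to 4.14 in Il13-deficient mice and from 3.99 to 4.52 in Rag2-/- mice. Their part in the T cell values was not tested. Cd8b1, the partner chain of Cd8a, differed by only -0.15 (SE 0.43), and Cd3d by -0.46 (SE 0.30).

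Interferon response genes also lay mostly below the Rag2-/- level. On the type I interferon list 22 of 24 tested genes had a difference below 0 (median -0.41), against 50.3% of all genes, and 5 were lower at an unadjusted p under 0.05, against 2.73% of all genes. Beside Xaf1 they included the antiviral gene Rsad2 (-0.90, SE 0.31), the ubiquitin-like modifier Isg15 (-0.71, SE 0.25) and Usp18, which removes it from proteins (-0.62, SE 0.24). On the interferon-gamma list 24 of 29 lay below 0 (median -0.26), 5 of them at an unadjusted p under 0.05, led by Nos2, the inducible nitric oxide synthase (-0.53, SE 0.16). Ifng, the cytokine itself, averaged 3.94 ± 0.42 (SD, n = 4) in Il13-deficient mice and 4.09 ± 0.30 (SD, n = 5) in Rag2-/- mice (difference -0.15, SE 0.21, adjusted p = 0.989).

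No gene of antigen-presenting cells passed. On the dendritic and Langerhans cell list 9 of 10 tested genes lay below 0 (median -0.36), against 50.3% of all genes, and 3 were lower at an unadjusted p under 0.05, against 2.73%. They were the costimulatory ligand Cd86 (-0.65, SE 0.24), the lymph node homing receptor Ccr7 (-1.17, SE 0.50) and Cd80, a further costimulatory ligand whose 4 Il13-deficient values were all repeated ones. The macrophage and monocyte list had 2 of 22 lower by the same measure, the scavenger receptor Marco (-1.53, SE 0.45) and the beta-glucan receptor Clec7a (-0.83, SE 0.36), with a median of -0.16. The macrophage receptor gene Csf1r differed by -0.02 (SE 0.30) and Adgre1, a surface marker of mouse macrophages, by -0.07 (SE 0.28).

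Cytokine genes outside the type 2 pathway pointed in both directions. On the list of Th1, Th17 and inflammatory cytokines 5 of 12 tested genes lay above 0 and 7 below (median -0.14). At an unadjusted p under 0.05, 1 was higher and 2 were lower, against 3.02% and 2.73% of all genes. Tnf was higher in every Il13-deficient mouse than in any Rag2-/- mouse (difference 0.67, SE 0.16, adjusted p = 0.261), while the related gene Lta was lower in every one (difference -0.70, SE 0.19, adjusted p = 0.408). Among genes measured in all 9 mice, 1.19% separated upward and 0.793% downward. Tnf and Lta were picked after their values were seen. Il1b, the main secreted interleukin 1, read 1.61 (6223), 6.28 (6224), 1.79 (6226) and 1.86 (6232) in Il13-deficient mice, against 4.61 (5701), 5.59 (5704), 5.10 (6151), 4.48 (6152) and 6.05 (6154) in Rag2-/- mice. Mouse 6224 had the highest Il1b of all 9 mice, and the other 3 Il13-deficient mice the lowest (difference -2.28, SE 0.67, adjusted p = 0.414).

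Immediate-early and heat shock genes, which respond quickly to stress and to the handling of tissue, lay mostly below the Rag2-/- level. Of 20 tested members 10 were lower at an unadjusted p under 0.05, against 2.73% of all genes, and 0 were higher (median -0.35). Examples are the transcription factor genes Fos (-1.40, SE 0.41) and Fosb (-0.69, SE 0.24) and the heat shock gene Hspa1b (-0.46, SE 0.15). The list mean was 0.18 (6223), 0.56 (6224), 0.29 (6226) and 0.19 (6232) in Il13-deficient mice, against 0.53 to 0.78 in Rag2-/- mice (median 0.64), so the groups overlapped through mouse 6224 alone. How tissue was handled in each mouse is not given, and its part in the result was not tested.

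No fibrillar matrix gene passed, and the main collagens had differences near 0. The fibrillar matrix list had a median of -0.04 over 22 tested genes, with 2 higher and 0 lower at an unadjusted p under 0.05. Over all genes 3.02% were higher and 2.73% lower at that p. The 2 matrix genes were Sparc, a collagen-binding protein (0.50, SE 0.17), and Col5a1 (0.47, SE 0.20). Col1a1, a main collagen chain of skin, averaged -0.98 ± 0.72 (SD, n = 4) in Il13-deficient mice and -0.84 ± 0.50 (SD, n = 5) in Rag2-/- mice (95% interval of the difference -0.77 to 0.49). Col1a2 differed by 0.03 (95% interval -0.60 to 0.67) and Col3a1 by -0.03 (95% interval -0.60 to 0.54). The signs of all 3 collagen differences turned under several of the alternatives tried. Tgfb1, the growth factor that drives scarring, averaged 0.05 ± 0.35 (SD, n = 4) in Il13-deficient mice and 0.47 ± 0.22 (SD, n = 5) in Rag2-/- mice (difference -0.42, SE 0.26, adjusted p = 0.963).

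On the fibrosis activation list 4 of 24 tested genes were lower at an unadjusted p under 0.05, against 2.73% of all genes, and 0 were higher (median -0.24). None passed. They were Ccn1, the macrophage elastase Mmp12 (-1.15, SE 0.37), the collagenase Mmp13 (-2.08, SE 0.77) and tenascin C, Tnc (-1.25, SE 0.54). Timp1, an inhibitor of metalloproteases, read -1.29, 0.79, -2.21 and -1.29 in Il13-deficient mice 6223, 6224, 6226 and 6232, against -0.89 to 0.71 in Rag2-/- mice (median -0.73). Mouse 6224 had the highest Timp1 of all 9 and the other 3 the lowest (difference -0.70, SE 0.40, adjusted p = 0.951).

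Fat and vessel genes lay mostly above the Rag2-/- level, though none passed. Adipocyte genes had differences above 0 in 14 of 15 tested cases (median 0.43), against 49.7% of all genes. At an unadjusted p under 0.05, 6 of 15 were higher, against 3.02% of all genes. Examples are the insulin-responsive glucose transporter Slc2a4 (0.96, SE 0.31), the lipid droplet protein Plin4 (0.93, SE 0.30) and the fatty acid transporter Cd36 (0.66, SE 0.22). The adipocyte hormone gene Adipoq, a defining marker, differed by -0.02 (SE 0.30). The list mean was 4.31 (6223), 3.90 (6224), 4.31 (6226) and 4.49 (6232) in Il13-deficient mice, against 3.66 to 3.99 in Rag2-/- mice (median 3.72), with overlap through mouse 6224. Skeletal muscle genes, from a layer below the skin fat, also lay above 0 in 22 of 24 tested cases (median 0.16), against 49.7% of all genes. Of these muscle genes 2 separated the groups upward, against 1.19% of genes measured in all 9 mice. The part of muscle in the adipocyte values was not tested. Endothelial genes had 13 of 17 above 0 (median 0.44), with 2 higher and 1 lower at an unadjusted p under 0.05. Over all genes those shares were 49.7% above 0, 3.02% higher and 2.73% lower. The tight junction gene Cldn5 (1.13, SE 0.34) and Egfl7, a secreted factor of vessel cells (0.64, SE 0.18), were higher, and Pdpn, a lymphatic marker also made by fibroblasts (-0.93, SE 0.30), was lower.

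The hair follicle list had the lowest median, -1.11 over 15 tested genes, but its spread lay within one group. The mean over members measured in all 9 mice was 0.56 (6223), 0.33 (6224), 0.30 (6226) and 0.52 (6232) in Il13-deficient mice, against 3.02 (5701), 0.99 (5704), 0.49 (6151), 1.92 (6152) and 0.33 (6154) in Rag2-/- mice. The Rag2-/- mice 5701 and 6152 were high and the other 3 lay near the Il13-deficient mice. Keratinocyte differentiation genes (median 0.15 of 17), basal keratinocyte genes (0.07 of 12) and skeletal muscle genes had 0 members at an unadjusted p under 0.05 in either direction. Fibroblast genes likewise had 0 of 13, with a median of -0.10.

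**Figure D2:**
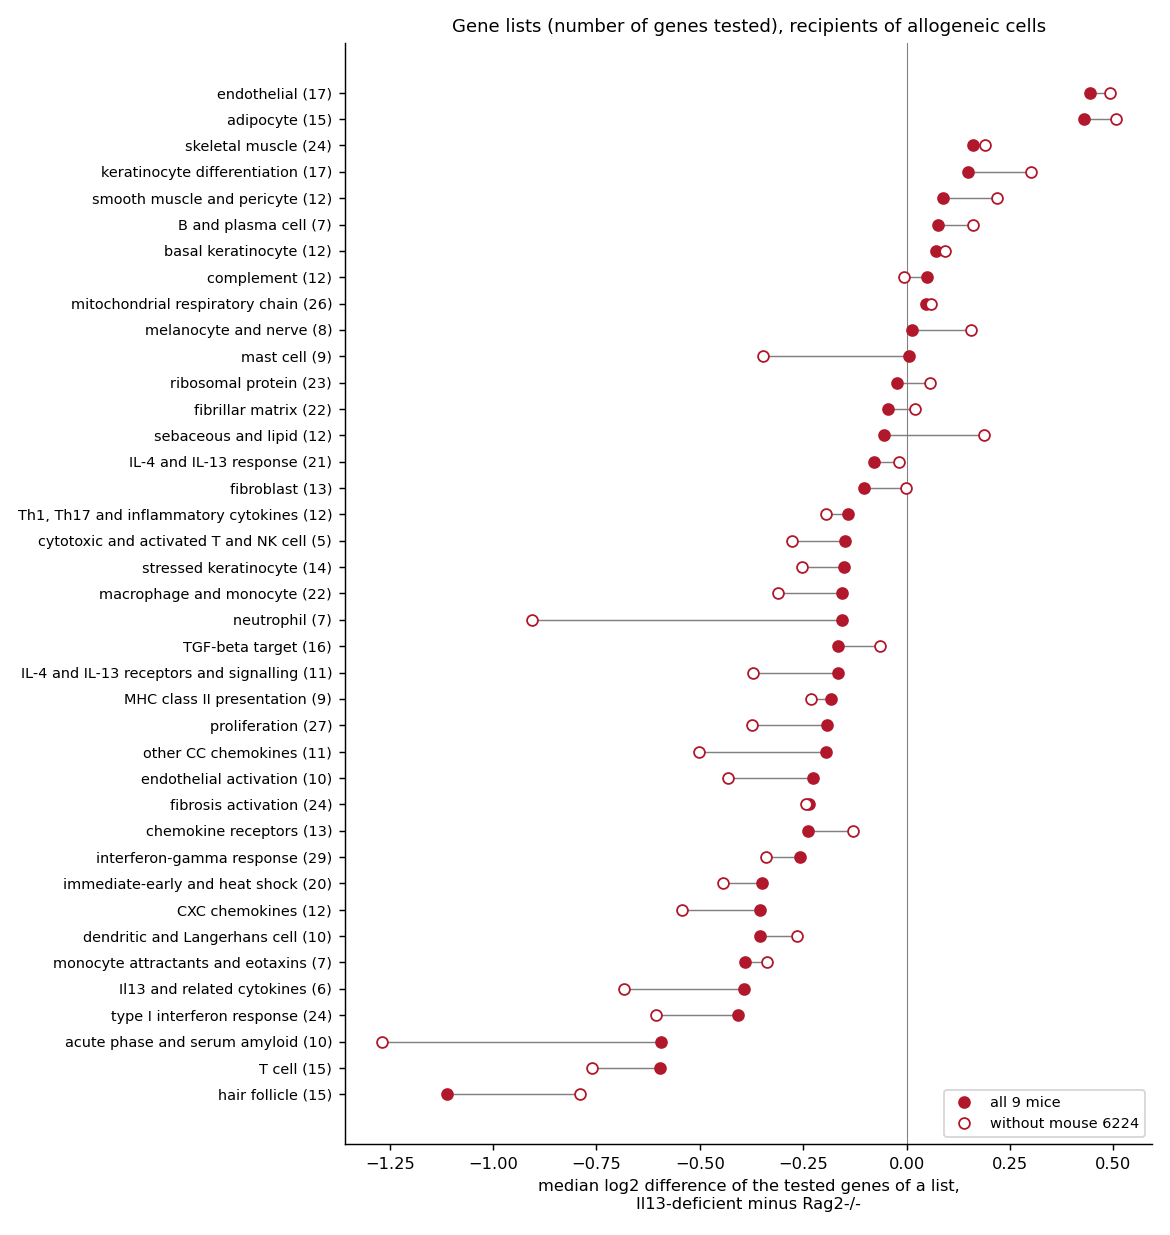
Median log2 difference, Il13-deficient minus Rag2-/-, of the tested genes of each list with at least 5 such genes. Values are with all 9 mice (filled) and without mouse 6224 (open). The circadian clock and sex-linked lists are not shown. The T cell list lies at -0.60 and the adipocyte list at 0.43 with all mice, and the neutrophil and acute-phase lists move furthest when mouse 6224 is left out, to -0.91 and -1.27.

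**Figure D3:**
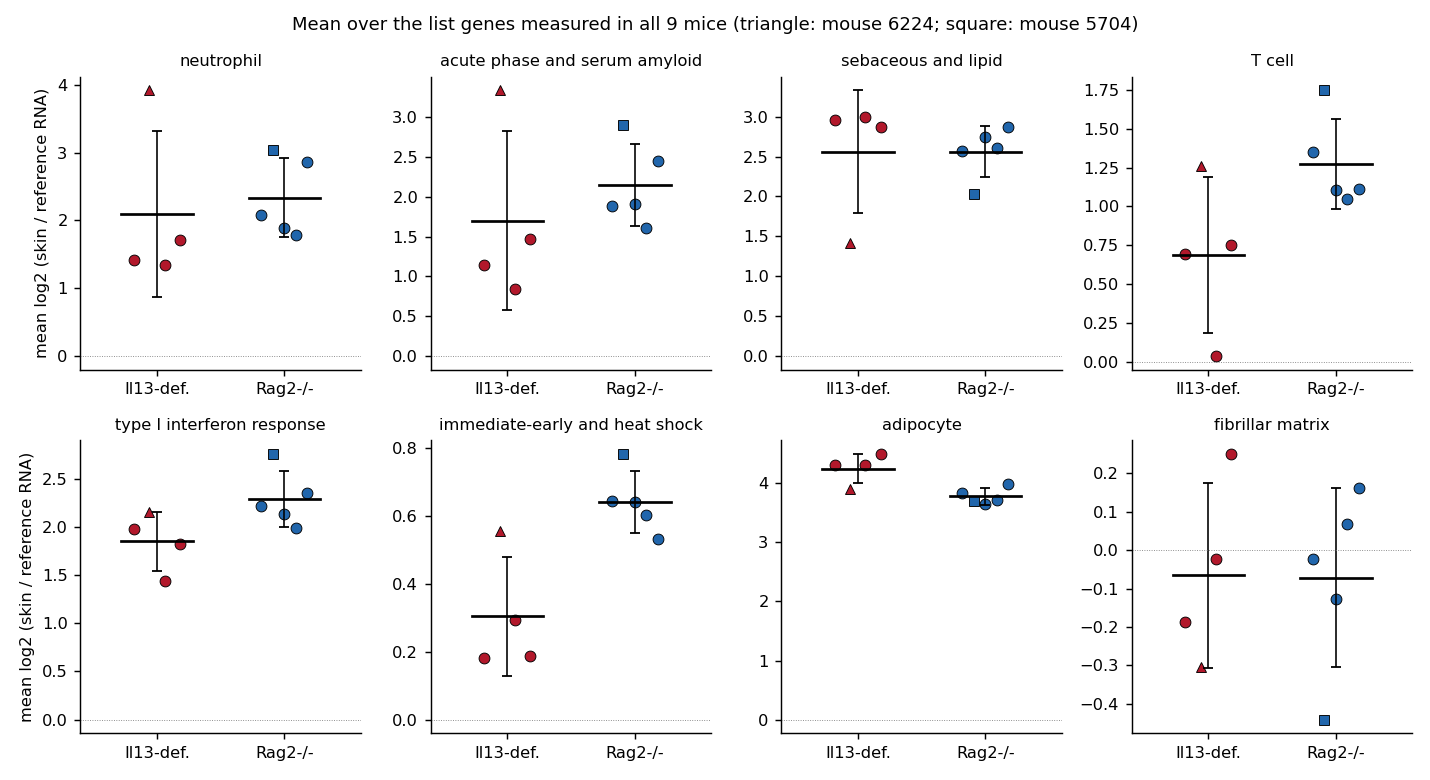
Mean log2 ratio of skin to reference RNA over the genes of 8 lists that were measured in all 9 mice, Il13-deficient mice left and Rag2-/- mice right in each panel. Each point is a mouse, the line the group mean and the bar 1 SD. Mouse 6224 (triangle) is highest of all for neutrophil genes, at 3.91, and lowest for sebaceous genes, at 1.42.

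The number of genes that passed changed with the weight of mouse 6224. Without it, 87 of 14723 genes passed, 45 higher (0.306%) and 42 lower (0.285%) in Il13-deficient skin, and all 87 had the same sign with all mice. Of these genes, 71 also passed when arrays were weighted by how closely each followed its group. Mouse 6224 then received a weight of 0.256, the lowest of the 9. The settings share most of their mice and both lower the part of mouse 6224, so this overlap is no separate support. In 78 of the 85 genes measured in it, mouse 6224 lay nearer to the Rag2-/- mean than to the mean of the other 3. The genes were picked by leaving that mouse out, so its place in them follows largely from the choice. When mouse 6224 and the Rag2-/- mouse 5704 were both left out, 40 of the 87 genes still passed. In 4 of the 87 genes (Gng13, Hadha, Slamf1 and Tpsab1) all values of a group were repeated ones. Leaving out any other mouse gave 0 or 1 gene in each direction. Neutrophil genes averaged 3.91 in mouse 6224 and 1.34 to 1.72 in the other Il13-deficient mice, and acute-phase genes 3.33 against 0.85 to 1.47. The part of these differences in the counts was not tested.

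The 42 genes that were lower without mouse 6224 included inflammatory and remodelling genes. Mouse 6224 was the highest Il13-deficient mouse for each gene named here, so leaving it out lowers their group mean. On the lists, 4 of 24 fibrosis activation genes and 1 of 12 inflammatory cytokine genes were lower, against 0.285% of all genes. Of macrophage and monocyte genes 0 of 22 were lower, and of neutrophil genes 0 of 7. Il1b had the largest difference, -3.41 (SE 0.35), and Mmp13 (-3.19, SE 0.59), Tnc (-2.06, SE 0.39) and Fos (-2.02, SE 0.29) passed too. Ptgs2, the inducible cyclooxygenase, differed by -1.67, the serum amyloid Saa1 by -1.45, Timp1 by -1.30 and Tnfaip3, a brake on NF-kB signalling, by -1.11. Plaur (-1.25) and Ccrl2 (-1.92) passed as well. The pattern recognition receptor gene Tlr2 (-1.22), the kinase gene Jak2 (-0.68) and the activin subunit gene Inhba (-1.49) were also among them. Ptgs2, Tlr2, Jak2 and Inhba lie on none of the lists and were picked after their values were seen.

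The 45 higher genes included Per2 (1.95), Dbp (1.81), Tef (1.58), Cry2 (1.12) and Ciart (1.10), all of which belong to or are driven by the circadian clock. The retinol carrier Rbp4 (1.86), angiotensinogen, Agt (1.89), and the wax synthase Awat2 (1.48) also passed, as did Tspan12 (1.19), Gpat3 (0.92) and Tnf (0.80). Apart from Tspan12, Gpat3, Per2, Tnf and Awat2 these genes were picked after their values were seen. Mouse 6224 was the lowest Il13-deficient mouse for each of the higher genes named here, so leaving it out raises their group mean. Without mouse 6224 the list medians were -0.76 for T cell genes, -0.61 for type I interferon genes and 0.51 for adipocyte genes. No member of the T cell, interferon or adipocyte lists passed without mouse 6224. With array weights the adipocyte genes Plin4, Cd36, Slc2a4, Gpd1 and Pnpla2 passed as higher and the interferon-gamma response gene Nos2 as lower.

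The same genotypes could be set side by side in mice given syngeneic cells, which share no animal with the comparison above but have the same split of number series. There 19 genes were higher (0.129% of genes) and 23 lower (0.156%) in Il13-deficient than in Rag2-/- skin at an adjusted p under 0.05. Of these 42 genes, 26 had the same sign in mice given allogeneic cells, and 5 of them had an unadjusted p under 0.05 there. Over all genes the allogeneic difference lay above 0 in 49.7% and below 0 in 50.3%. At that unadjusted p, 3.02% of all genes were higher and 2.73% lower. A test of the difference between the allogeneic and syngeneic contrasts called 2 genes (0.0135%). That test was not repeated under the alternatives.

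Those 2 genes were Tspan12 and Gpat3. Tspan12 averaged 2.64 ± 0.30 (SD, n = 4) in Il13-deficient and 1.52 ± 0.24 (SD, n = 5) in Rag2-/- mice given allogeneic cells, and 2.73 ± 0.51 (SD, n = 4) in Il13-deficient and 3.39 ± 0.22 (SD, n = 4) in Rag2-/- mice given syngeneic cells. Its contrast was 1.12 (SE 0.20) with allogeneic and -0.67 (SE 0.21) with syngeneic cells, a difference of 1.78 (SE 0.30, adjusted p = 0.0417). Gpat3 had contrasts of 0.81 (SE 0.19) and -0.91 (SE 0.20), a difference of 1.72 (SE 0.27, adjusted p = 0.0417). In both genes the Rag2-/- mice given allogeneic cells had the lowest mean of the 4 groups, without overlap with the Il13-deficient mice given the same cells.

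Xaf1 and Marco behaved otherwise. Xaf1 read -2.78, -3.59, -1.12 and -1.46 in syngeneic Il13-deficient mice, against 0.66, -0.32, -0.11 and 0.62 in syngeneic Rag2-/- mice. Il13-deficient mice were lower without overlap under both grafts, with differences of -2.45 (SE 0.44, adjusted p = 0.0319) with syngeneic and -1.70 (SE 0.42, adjusted p = 0.300) with allogeneic cells. Marco differed by -2.46 (SE 0.47, adjusted p = 0.0381) with syngeneic and by -1.53 (SE 0.45, adjusted p = 0.412) with allogeneic cells, again without overlap. For neither gene did the contrasts differ past the threshold (adjusted p = 0.566 for Xaf1 and 0.504 for Marco). The mean of both contrasts, added after seeing the data, called 4 genes (0.0271%), Xaf1 and Marco among them.

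**Figure D4:**
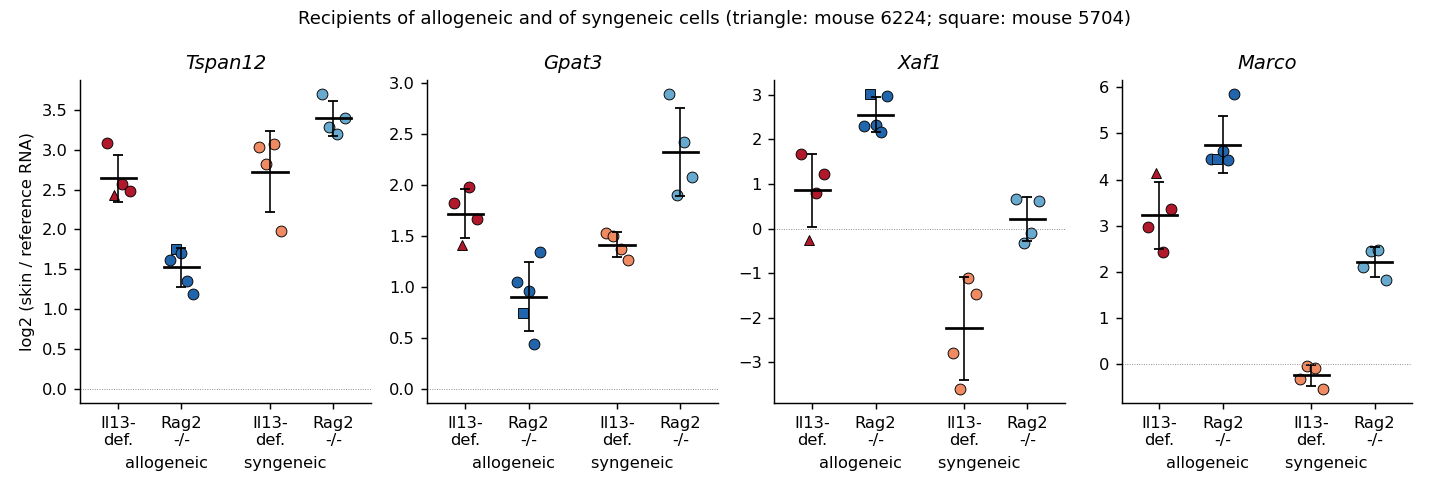
Log2 ratio of skin to reference RNA for 4 genes in recipients of allogeneic cells (left pair) and of syngeneic cells (right pair), Il13-deficient mice left of Rag2-/- mice in each pair. Each point is a mouse, the line the group mean and the bar 1 SD. Tspan12 and Gpat3 are higher in Il13-deficient mice with allogeneic cells and lower with syngeneic ones, while Xaf1 and Marco are lower with both.

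Il13 lies on chromosome 11, and the genes around it were examined in gene order. Of the 50 tested genes on each side, 10 had an unadjusted p under 0.05 (10%, against 5.75% of all genes), 8 higher and 2 lower. None passed the adjusted threshold (lowest adjusted p 0.408). The median over these 100 genes was -0.01. Next to Il13 were Il4 (-0.30) and Rad50, a DNA repair gene (-0.35, SE 0.16). P4ha2, which hydroxylates collagen, differed by 0.73 (SE 0.21), and Slc22a21, a carnitine transporter, by 0.37 (SE 0.12). With syngeneic cells both differences had the other sign, at -0.42 for P4ha2 and -0.49 for Slc22a21. With an unadjusted p under 0.05 and the same sign under both grafts there were 2 neighbours, against 83 of all tested genes (2% and 0.561%). Those 2 were Sparc, at 0.50 with allogeneic and 0.58 with syngeneic cells, and Anxa6, a calcium-dependent membrane-binding protein, at -0.55 and -1.26. On chromosome 11 as a whole 6.73% of tested genes had an unadjusted p under 0.05, the fourth highest share of 20 chromosomes, which ran from 4.03% to 7.47%.

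**Figure D5:**
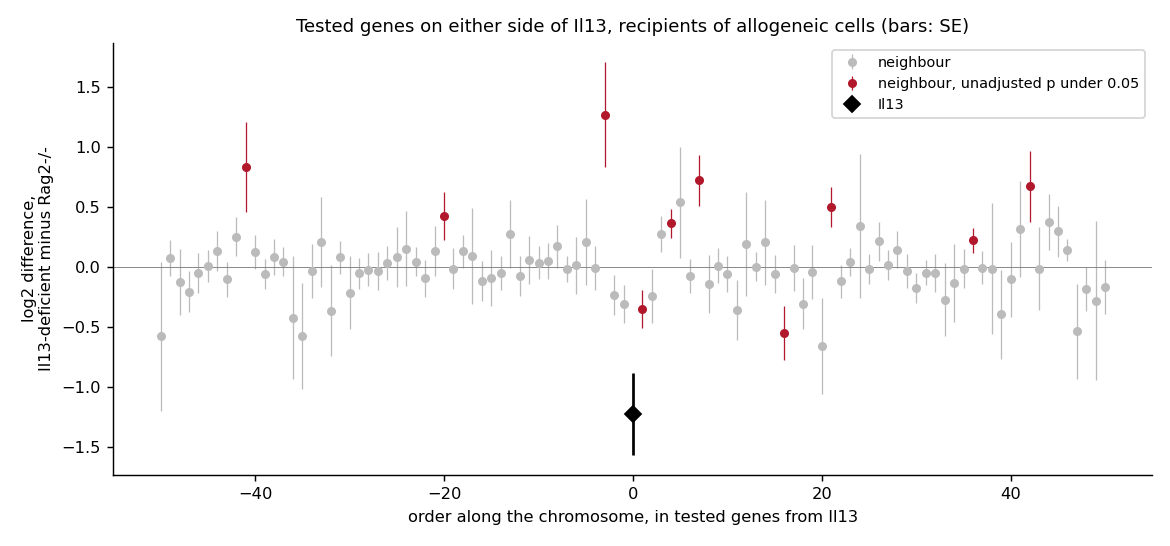
Log2 difference, Il13-deficient minus Rag2-/- recipients of allogeneic cells, for Il13 (diamond) and the 50 tested genes on each side of it, by gene order along the chromosome. Bars are 1 SE, and the 10 red points have an unadjusted p under 0.05. Of these points 8 are above 0 and 2 below.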

How the data were processed

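Skin RNA (Cy3) and a common reference RNA (Cy5) were hybridised on 2-colour Agilent arrays, per the labels. The authors' deposited table holds 1 log2 ratio per probe and array, with array medians near 0. How it was normalized or filtered is not stated, and log base and direction were read from the values: epidermal genes lay far below 0, so the sign was turned to give skin over reference. An exact 0 was read as not measured. The 2 arrays of mouse 6232 were averaged (r = 0.924 between them). Of 41174 probes, 32664 had 1 gene symbol, 45 several and 8465 none in the platform annotation. A gene's value is the mean of its most complete probes with the same missing pattern. A gene was tested when each of 6 groups had it in 2 or more mice, which left 14783 of 19532.

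One model with a mean per group over 24 mice was used (limma 3.58.1 under R 4.3.3, lmFit and eBayes), two-sided, with Benjamini-Hochberg adjustment over all tested genes and a threshold of 0.05. The test was tried on simulated data. A mouse whose label names IL14Ra was taken as Il4ra-deficient and enters only the shared spread. Named genes were the 10 lowest p in each direction, since fewer than 10 genes passed, list members past the threshold, and a fixed set of type 2 cytokine, chemokine, matrix and macrophage genes. Each of 42 gene lists was described by counts and median, with no set test. Comparison, lists and named genes were chosen with earlier results of these data known. Mouse numbers are taken as separate animals. Precision is limited by how few arrays there are. Alternatives covered missing and dim values, normalization, probe choice, number series, array weights and each mouse left out.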

Additional observations from a re-analysis of the deposited data

Results flagged for a closer look

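Dixon's criterion was applied to 156 sets of values, each a gene or list mean over 4 or 5 mice of a group. In 15 sets a mouse lay far from the others, where chance gives about 1 in 20 for independent sets. These sets come from the same mice and are not independent, so the counts are a description. Mouse 6224 accounted for 7 of the 15. Among Il13-deficient mice it stood high for Ccrl2 at 2.85 (others 0.94 to 1.25), for Ccn1 at -1.71 (others -2.78 to -2.62), for inflammatory cytokine genes at 2.36 (others 1.06 to 1.27), for neutrophil genes at 3.91 (others 1.34 to 1.72) and for endothelial activation genes at 2.13 (others 1.18 to 1.31). It stood low for sebaceous and lipid genes at 1.42 (others 2.87 to 3.0) and for ribosomal protein genes at -0.79 (others -0.56 to -0.53). Mouse 6232 stood high for Gng13 at 1.27.

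Mouse 5704 accounted for 5, among Rag2-/- mice. It stood high for Il4ra at 3.27, for the genes of IL-4 and IL-13 receptors and signalling at 1.35 and for proliferation genes at -1.39, and low for ribosomal protein genes at -0.83 and for sex-linked genes at -2.08 (others -0.80 to -0.37). Mouse 6152 stood low for IL-4 and IL-13 response genes at 2.75 (others 2.94 to 3.01), and mouse 6154 high for skeletal muscle genes at 5.31.

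The contrast between Il13-deficient and Rag2-/- mice differed between grafts, by the test of the difference itself, for Tspan12 (allogeneic minus syngeneic 1.78) and Gpat3 (1.72).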

How the results depend on the processing

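Counts past the threshold moved with array weights and with mouse 6224. With each mouse left out in turn they ran from 0 to 45 higher and 0 to 42 lower. Array weights gave 132 higher and 107 lower, and leaving out 6224 and 5704, added after seeing the data, 20 higher and 22 lower. The number series as a random block gave 4 higher (estimated correlation -0.06), Rag2-/- mice of the series 61 alone 2 and dim repeated values as missing 1, with 0 lower in each. The cause was not tested. In the other 9 settings, with 11852 to 19532 genes tested, 0 passed in both directions. No paired analysis was possible because mouse numbers are unique to a mouse and pair no animals across groups. Sign turned for differences near 0. Rag2 gave -0.0021 with quantile normalization, -0.0031 with median centring, -0.0025 with the second array of mouse 6232 alone, and -0.013 to 0.021 with a mouse left out. Exact 0 kept as a value gave -0.065 for Col1a2, 0.051 for Col3a1, -0.53 for Retnla and 0.015 for Clock. The mean of all probes gave -0.065 for Col1a2, 0.016 for Col3a1, -0.025 for Retnla and 0.015 for Clock. Series 57 alone gave 0.34 for Col1a1, 0.29 for Col3a1 and -0.34 for Chil3. Series 61 alone gave -0.075 for Ccl11, -0.30 for Col1a2, -0.14 for Retnla and -0.061 for Bhlhe41. Array weights gave -0.073 for Col1a2, -0.72 for Chil3 and 0.034 for Ifng. Without 6224 and 5704, Ccl11 was -0.057 and Chil3 -0.78. Retnla was -0.15 with quantile normalization and -0.0062 with the first array of 6232, and Bhlhe41 -0.014 with the second. With a mouse left out, Col1a1 ran from -0.40 to 0.11, Col1a2 from -0.24 to 0.25, Col3a1 from -0.17 to 0.18, Chil3 from -0.80 to 0.98, Retnla from -0.25 to 0.42 and Bhlhe41 from -0.047 to 0.24. The cause of these turns was not tested.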

Other observations

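Circadian clock genes were examined as a list made after Per2 had been seen among the leaders, so these values are a description. Of 14 tested clock genes, 11 had a difference above 0 (median 0.77), against 49.7% of all genes, and 9 had an unadjusted p under 0.05, all higher in Il13-deficient skin, against 3.02% of all genes. The clock output genes Dbp (1.37, SE 0.39), Hlf (1.26, SE 0.47) and Tef (1.11, SE 0.36) lay with the repressors Per2 (1.67), Ciart (0.89, SE 0.24), Cry2 (0.82, SE 0.24), Nr1d2 (0.84, SE 0.36), Nr1d1 (0.73, SE 0.34) and Cry1 (0.65, SE 0.25). Other probes disagreed, giving differences as low as 0.0017 for Per2, 0.016 for Cry2, 0.058 for Nr1d1 and 0.20 for Tef, and over 23 alternatives Cry2 ran from 0.32 to 1.19. Arntl, an activator whose transcript cycles against these genes, differed by -0.35 (SE 0.17), and Clock by -0.07 (SE 0.14). Dbp read -0.29 (6223), -2.08 (6224), -0.64 (6226) and 0.02 (6232) in Il13-deficient mice, against -2.45 to -1.69 in Rag2-/- mice (median -2.13). Mouse 6224 was within the Rag2-/- range for Dbp and the other 3 were above it. In mice given syngeneic cells the median of the list was -0.18. The hour at which skin was taken is not given in the sources used here, and its part was not tested.

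The mean of the allogeneic and the syngeneic contrast used 8 Il13-deficient and 9 Rag2-/- mice. It called 4 genes (0.0271%): Xaf1 (-2.07, SE 0.30, adjusted p = 0.0128), Marco (-2.0, SE 0.33, adjusted p = 0.0229), Slco4a1, an organic anion transporter (0.96, SE 0.16, adjusted p = 0.0229), and Nme6, a nucleoside diphosphate kinase (-0.64, SE 0.11, adjusted p = 0.0256). In mice given allogeneic cells alone, all 4 genes separated the groups without overlap, Slco4a1 at 0.59 (SE 0.22) and Nme6 at -0.52 (SE 0.15). Among genes measured in all 9 of these mice, 1.19% separated upward and 0.793% downward. The same mice entered the mean that picked the 4 genes, so their separation is no separate support. All 8 Il13-deficient mice have numbers of the series 62 here too.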
